A study of Mus musculus with 6 samples.

Results

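The 9 genes described here encode procoagulant proteins (F3, F8, Vwf) and proteins with which endothelium restrains clotting and platelets (Tfpi, Thbd, Procr, Pros1, Entpd1), together with Gas6, a relative of protein S. They were selected by gene symbol, from these named roles, with earlier results of these data known. All 9 of them were listed in each of the 6 RNA-seq tables, among 12911 genes, and all 9 passed the filter on low counts that left 12786 genes for testing. The RNA came from glomerular endothelial cells of eNOS-null mice, which lack the endothelial nitric oxide synthase. One group of 3 libraries came from mice treated with streptozotocin (STZ), a beta-cell toxin used to induce diabetes, and the other group of 3 libraries came from untreated control mice of the same genotype. Each library held RNA pooled from 4 mice: bead-filled glomeruli were held on a magnet, broken down with enzymes, and passed through a cell sorter that separates cells by EYFP. The sources used here do not give the promoter that drives EYFP, nor the sex, strain, age or time after STZ. Each error and p-value thus reflects variation among pools, since no single mouse was measured.

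Blood clotting starts when tissue factor, the product of F3, meets factor VII on a cell surface, and it is amplified by thrombin through cofactors such as factor VIII, which circulates bound to von Willebrand factor. Resting endothelium holds this back with tissue factor pathway inhibitor, with thrombomodulin and the endothelial protein C receptor, which turn thrombin into an activator of protein C, and with protein S, the cofactor of activated protein C. It also removes ATP and ADP, which activate platelets, with the ectonucleotidase CD39, the product of Entpd1.

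Total counts were 10734376 to 12662371.5 in the STZ libraries and 4387339 to 8751732.5 in the control libraries, so every STZ library was deeper. Levels are given as CPM (counts scaled to library size, with trimmed-mean factors), and fold changes are STZ over control from the edgeR quasi-likelihood fit to all 6 libraries, with p-values adjusted by Benjamini-Hochberg over the 12786 genes and a threshold of 0.05. The markers of the labelled cell type were abundant. The 8 glomerular endothelial markers, among them Pecam1, Cdh5 and Kdr, summed to 22213.4 to 24194.5 CPM in STZ libraries and 11789.1 to 13998.2 CPM in control libraries. Of the 8, 5 were called higher in STZ, against 5.47% of all tested genes. Most of the difference between the sums came from Plat, at 8303 ± 603 CPM in STZ and 2630.5 ± 544 CPM in control libraries (SD, n = 3 each), and from Ehd3, at 5229.9 ± 241 CPM in STZ and 3001 ± 335 CPM in control libraries. Markers of neighbouring cells were present too: 10 podocyte markers summed to 1652 to 2362 CPM in STZ and 1662 to 3578 CPM in control libraries, and 10 mesangial and mural markers to 454 to 829.9 CPM in STZ and 1147 to 1263 CPM in control libraries. Leukocyte markers summed to 70.7 to 75.2 CPM in STZ and 65.4 to 82.2 CPM in control libraries. Of the 4 tested, edgeR called 0, against 9.78% of all tested genes in either direction. At an unadjusted p under 0.05 there were 2, 1 in each direction. Tubule markers summed to 39.7 to 227 CPM in STZ and 144 to 464 CPM in control libraries. Of the 6 tested, 1 (Slc12a1) was called lower, against 4.32% of all tested genes. Of all tested genes, 24.2% had an unadjusted p under 0.05 by edgeR, in either direction. The endothelial sums were thus apart between groups and the leukocyte sums overlapped. Xist, which marks cells with an inactive X chromosome, stood at 0.387 to 0.865 CPM in STZ and 689.7 to 746 CPM in control libraries, so the treatment and this difference between the pools cannot be told apart in any gene described here.

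In STZ libraries Pros1, F8 and Entpd1 rose, by 1.49-fold, 1.52-fold and 1.44-fold, and F3 fell to 0.503 of its control level. The other 5 genes, Vwf, Tfpi, Thbd, Procr and Gas6, did not pass the test. Thus 3 of the 9 genes were called higher, against 5.47% of all tested genes, and 1 was called lower, against 4.32% of all tested genes. In either direction 9.78% of all tested genes were called. In 5 of the 9 (Pros1, F8, Entpd1, Procr and Tfpi) every STZ library lay above every control library, which was so in 15.4% of all tested genes. In 1 of them, Gas6, every STZ library lay below every control library, as in 13.7% of all tested genes, and in Vwf, Thbd and F3 the groups overlapped. The median log2 fold change was 0.14 over the 9 genes and -0.01 over all tested genes. Because whole cell pools were sequenced, fewer cells of a type and less RNA per cell cannot be told apart.

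**Figure D1:**
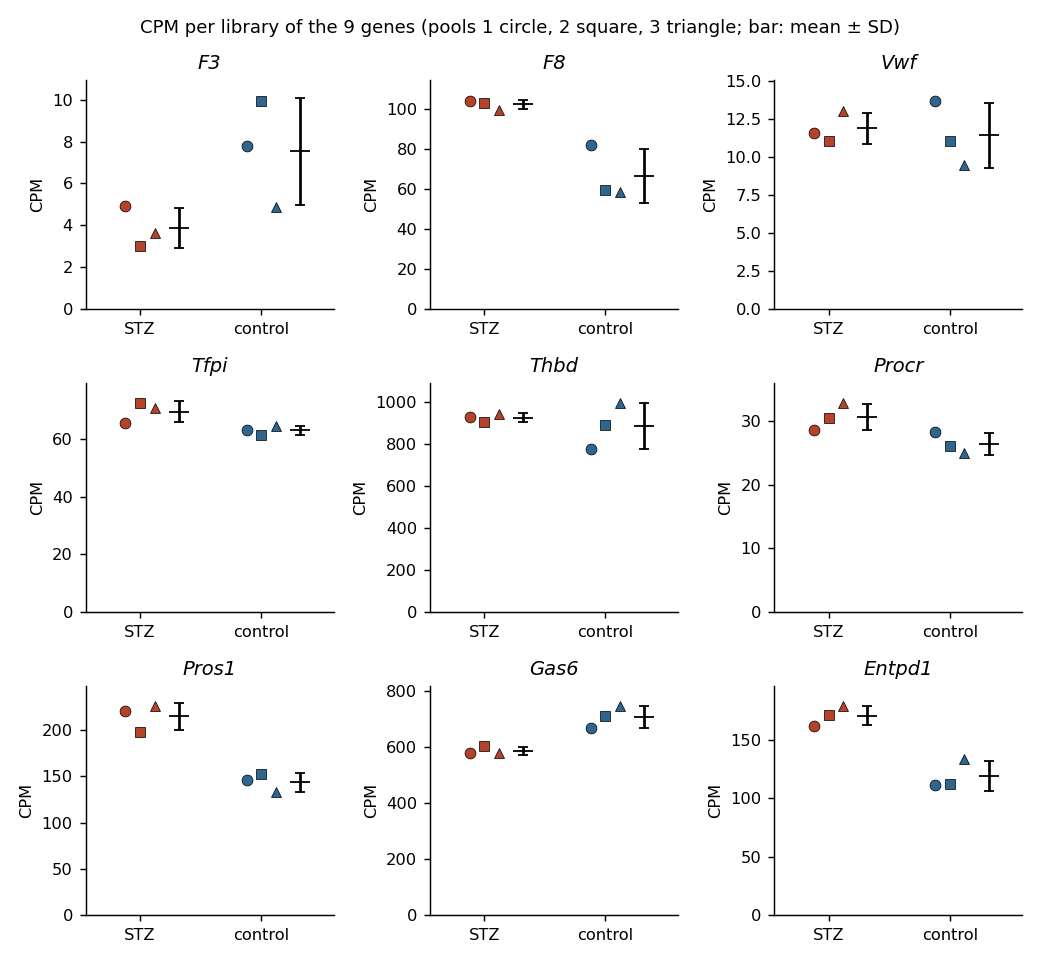
Level of each of the 9 genes in CPM (vertical axes, each from 0) in the 3 STZ and the 3 control libraries, with 1 symbol per pool and the mean ± SD at the side. The groups do not overlap in Pros1, F8, Entpd1, Gas6, Procr and Tfpi, and overlap in F3, Vwf and Thbd. For F3, STZ pool 1 (4.93 CPM) lies just above control pool 3 (4.86 CPM).

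The promoters of the 3 genes that rose, of F3, which fell, and of Gas6, the relative of Pros1 whose STZ libraries all lay below the control libraries, are shown for comparison. They are the 300 bases from 250 before to 50 after a transcription start in RefSeq (GRCm38.p6), written 5′ to 3′ on the strand of the gene. Capitals mark matches on either strand to 4 short motifs: TGANTCA (AP-1), GGGCGG (the GC box bound by Sp1), CACCC (the box bound by Krüppel-like factors) and TATAAA (the TATA box).
F3 (chr3:121723287-121723586, plus strand): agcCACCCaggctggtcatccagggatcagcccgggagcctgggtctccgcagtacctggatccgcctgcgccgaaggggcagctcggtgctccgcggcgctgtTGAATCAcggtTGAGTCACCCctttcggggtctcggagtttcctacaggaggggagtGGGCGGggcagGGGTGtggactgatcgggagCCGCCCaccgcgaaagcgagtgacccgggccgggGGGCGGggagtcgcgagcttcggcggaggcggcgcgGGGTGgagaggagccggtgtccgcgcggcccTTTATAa
Pros1 (chr16:62854057-62854356, plus strand): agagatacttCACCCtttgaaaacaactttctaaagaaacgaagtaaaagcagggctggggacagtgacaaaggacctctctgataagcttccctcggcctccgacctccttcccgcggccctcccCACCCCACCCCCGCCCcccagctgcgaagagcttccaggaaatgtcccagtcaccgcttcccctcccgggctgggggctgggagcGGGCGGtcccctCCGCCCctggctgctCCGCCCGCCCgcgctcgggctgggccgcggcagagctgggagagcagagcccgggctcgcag
Entpd1 (chr19:40659520-40659819, plus strand): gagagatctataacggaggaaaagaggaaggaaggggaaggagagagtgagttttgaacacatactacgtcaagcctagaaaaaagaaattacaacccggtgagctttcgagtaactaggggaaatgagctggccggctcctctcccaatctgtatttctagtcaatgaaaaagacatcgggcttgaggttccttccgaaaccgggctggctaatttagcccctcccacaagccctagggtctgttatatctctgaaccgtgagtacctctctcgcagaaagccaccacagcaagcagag
F8 (chrX:75379992-75380291, minus strand): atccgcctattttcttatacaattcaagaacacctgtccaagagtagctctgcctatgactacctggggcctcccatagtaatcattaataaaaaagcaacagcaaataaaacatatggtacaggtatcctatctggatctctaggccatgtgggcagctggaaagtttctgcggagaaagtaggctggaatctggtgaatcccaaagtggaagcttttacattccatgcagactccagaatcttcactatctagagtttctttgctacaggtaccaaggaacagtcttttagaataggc
Gas6 (chr8:13494486-13494785, minus strand): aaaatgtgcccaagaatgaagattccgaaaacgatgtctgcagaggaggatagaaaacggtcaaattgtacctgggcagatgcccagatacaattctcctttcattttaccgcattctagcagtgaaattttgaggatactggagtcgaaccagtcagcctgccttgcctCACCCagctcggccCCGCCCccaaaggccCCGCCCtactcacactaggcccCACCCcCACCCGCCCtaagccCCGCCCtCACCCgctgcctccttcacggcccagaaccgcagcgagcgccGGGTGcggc

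The F3 promoter held 2 AP-1 matches, starting at -146 and -135 counted from the start site, and 3 GC boxes, at -89, -58 and -24. The second AP-1 match overlapped a CACCC box at -130. The TATAAA match of F3 started at 44, after the start site, and was on the opposite strand. A match to AP-1 occurs in 7.81% of the 32851 promoters in the table, to the GC box in 35.7%, to CACCC in 57.5% and to TATAAA in 13.6%. Pros1 had 5 GC boxes, of which those at -12 and -8 overlapped, and 3 CACCC boxes. Gas6 had 4 GC boxes and 5 CACCC boxes, and its CACCC box at -23 overlapped the GC box at -20. The promoters of Entpd1 and F8 had no match to any of the 4 motifs in these windows. None of the 4 motifs occurred in all 3 genes that rose, and their GC content was 66.7% in Pros1, 48.7% in Entpd1 and 42.3% in F8, against 70.3% in F3 and 58.3% in Gas6. For Pros1 and Entpd1 the RefSeq start lay 27 and 24 bases from the start listed in the deposited tables. The table's other promoter of Entpd1 is not printed. Promoters were found in the table for 7 of the 9 genes. Those of Procr and Tfpi are not printed. Procr also held an AP-1 match, at -154, and a CACCC box at -162. Tfpi held a GC box at -41, a CACCC box at -173 and a TATAAA match at -127, on the opposite strand.

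Per kilobase of listed transcript, the scale on which levels of different genes can be compared, Thbd, Gas6, Pros1 and Entpd1 were the most abundant of the 9 genes in both groups. In STZ libraries Thbd was highest at 249 ± 5.53 CPM per kilobase (SD, n = 3, as for the levels that follow), then Gas6 at 226 ± 5.69, Pros1 at 65.8 ± 4.45, Entpd1 at 40.7 ± 1.97, Tfpi at 23.0 ± 1.20, Procr at 20.4 ± 1.39, F8 at 13.7 ± 0.322, F3 at 2.06 ± 0.518 and Vwf at 1.35 ± 0.115. In control libraries the order was the same except at the top, with Gas6 at 273 ± 14.8 CPM per kilobase, Thbd at 239 ± 29.3, Pros1 at 44.0 ± 3.12, Entpd1 at 28.4 ± 3.04, Tfpi at 20.9 ± 0.504, Procr at 17.6 ± 1.15, F8 at 8.89 ± 1.79, F3 at 4.02 ± 1.36 and Vwf at 1.29 ± 0.242. Most neighbours in this order did not overlap in their ranges. The exceptions were Gas6 and Thbd in control libraries (257 to 287 and 209 to 268 CPM per kilobase) and Tfpi and Procr in STZ libraries (21.7 to 23.9 and 19.03 to 21.8 CPM per kilobase). In STZ libraries the Thbd range of 244 to 255 lay above the Gas6 range of 222 to 232 CPM per kilobase. Without scaling to length, Thbd and Gas6 held most of the counts: Thbd 43.8% and Gas6 27.6% of the summed counts of the 9 genes in STZ, and Thbd 43.1% and Gas6 34.8% in control libraries. F8 and Tfpi have 3 listed transcripts each, so their length scale rests on 1 of the 3.

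F3 encodes tissue factor, the membrane protein that starts coagulation (NM_010171, mm10 chromosome 3, 121723537 to 121735052, plus strand). It was counted 51, 35 and 45 times in STZ pools 1, 2 and 3, and 71, 62 and 22 times in control pools 1, 2 and 3. In CPM this was 4.93, 3.03 and 3.64 in STZ, against 7.80, 9.96 and 4.86 in control libraries. Control pools 1 and 2 were high and control pool 3 was as low as the highest STZ pool, so the groups overlapped. On the log2 scale F3 fell by 0.99 ± 0.28 (SE, edgeR adjusted p = 0.0399), and the 95% interval of the log2 fold change was -1.59 to -0.39. The call was lost by limma-voom (adjusted p = 0.0524), by a fit that was not robust (0.0538), with a replicate block (0.0629) and with all libraries thinned to the smallest (0.178). Leaving out STZ pool 2 (adjusted p = 0.106) or 3 (0.112), or control pool 1 (0.136) or 2 (0.142), ended it too, while the log2 fold change stayed between -1.19 and -0.76.

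F3 is known to be strongly expressed by podocytes and by cells around vessels, and the levels of their markers are given beside it. The 10 podocyte markers summed to 2278, 1652 and 2362 CPM in STZ pools 1, 2 and 3, and to 3112, 3578 and 1662 CPM in control pools 1, 2 and 3. Podocyte markers and F3 were both highest in control pool 2 and both lowest in STZ pool 2, and control pool 3 was the lowest control pool for both. The match was not complete, since control pool 3 lay below STZ pools 1 and 3 in podocyte markers, whereas its F3 lay above STZ pool 3 and close to STZ pool 1. This likeness was not particular to podocyte markers. Tubule markers summed to 142, 39.7 and 227 CPM in STZ pools and to 287, 464 and 144 CPM in control pools. They too were highest in control pool 2 and lowest in STZ pool 2, with control pool 3 the lowest control pool. All 10 podocyte markers had a negative log2 fold change (median -0.62), and in all 10 the groups overlapped. None of the 10 passed the edgeR test, against 9.78% of all tested genes called in either direction. At an unadjusted p under 0.05 there were 2, against 24.2% of all tested genes. Mesangial and mural markers summed to 712, 454 and 829.9 CPM in STZ pools and to 1263, 1237 and 1147 CPM in control pools. These were also lowest in STZ pool 2, with control pool 3 the lowest control pool, but were highest in control pool 1. For 9 of those 10 markers every STZ library lay below every control library, against 13.7% of all tested genes, and 3 were called lower (Myh11, Notch3 and Rgs5), against 4.32%. No defining marker of either list was at 0 in a group, and the part of these cells in the F3 result was not tested.

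**Figure D2:**
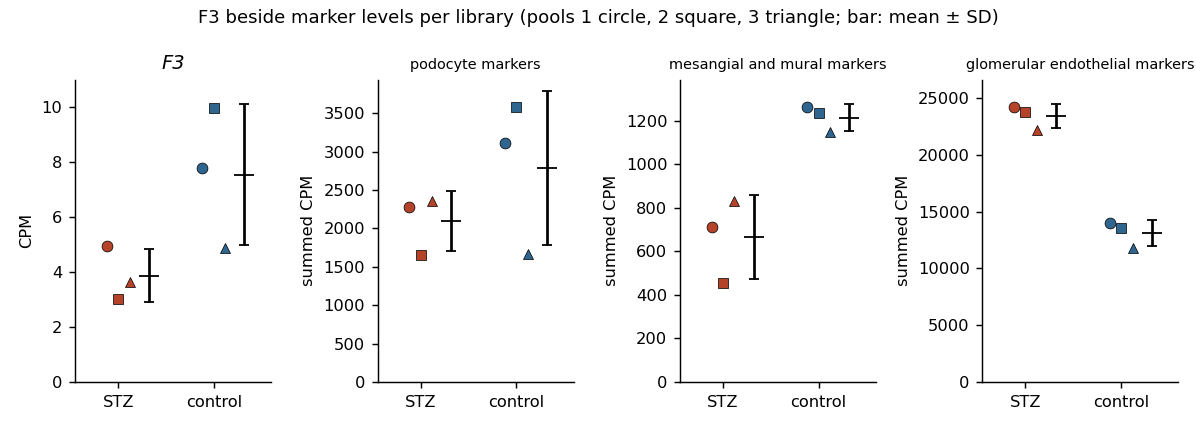
F3 in CPM, and the summed CPM of 10 podocyte, 10 mesangial and mural and 8 glomerular endothelial markers, in the 3 STZ and 3 control libraries (1 symbol per pool, mean ± SD at the side, vertical axes from 0). Control pool 3 is low for F3 (4.86 CPM) and for podocyte markers (1662 CPM), whereas mesangial markers separate the groups without overlap.

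F8 encodes factor VIII, the cofactor that speeds the activation of factor X (NM_007977, mm10 chromosome X, 75172715 to 75380041, minus strand). It stood at 104, 103 and 99.8 CPM in STZ pools, against 82.2, 59.4 and 58.5 CPM in control pools. The STZ pools were close together (coefficient of variation 2.36%) and the control pools were spread (20.1%), with control pool 1 nearest to STZ. The log2 fold change was 0.61 ± 0.12 (SE, adjusted p = 0.00654 by edgeR), and it stayed called in each of the 17 alternatives, with values of 0.53 to 0.80. F8 is the only one of the 9 genes on the X chromosome, the chromosome whose silencing RNA separated the pools. The part of that difference in the F8 result was not tested.

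Vwf encodes von Willebrand factor, which tethers platelets to injured vessels and carries factor VIII in plasma (NM_011708, mm10 chromosome 6, 125552948 to 125686679, plus strand). It was counted 120, 128 and 161 times in STZ pools, and 125, 69 and 43 times in control pools. Its level was 11.6, 11.1 and 13.03 CPM in STZ and 13.7, 11.1 and 9.50 CPM in control libraries. The groups overlapped widely and control pool 1 was the highest of all 6. Vwf had a log2 fold change of 0.04 ± 0.18 (SE, adjusted p = 0.931 by edgeR), and its 95% interval of -0.35 to 0.43 leaves room for a 1.34-fold rise or a fall to 0.782. Factor VIII is stabilised by von Willebrand factor, and the 2 genes were set against each other. The within-library ratio of F8 to Vwf, per kilobase, was 10.5, 10.9 and 8.99 in STZ pools, against 7.02, 6.27 and 7.18 in control pools. This ratio was 1.49-fold higher in STZ, with no overlap between the groups and a p of 0.1 by the exact permutation test (two-sided), the smallest that 3 against 3 libraries allow, and 0.133 adjusted over the 4 ratios tested.

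Tfpi encodes tissue factor pathway inhibitor, which blocks the complex of tissue factor and factor VII (NM_001177319, mm10 chromosome 2, 84440723 to 84476759, minus strand). Its level was 65.6, 72.5 and 71.0 CPM in STZ pools, and 63.2, 61.7 and 64.7 CPM in control pools. The groups did not overlap, but STZ pool 1 lay within 1 CPM of control pool 3. Its log2 fold change of 0.14 ± 0.09 (SE) did not pass (adjusted p = 0.368 by edgeR), with a 95% interval of -0.05 to 0.34. Per kilobase, Tfpi was more abundant than F3 in every library. The ratio of F3 to Tfpi per kilobase was 0.122, 0.0683 and 0.0837 in STZ pools, against 0.200, 0.262 and 0.124 in control pools. STZ pool 1 and control pool 3 were nearly equal in this ratio. It was 0.476-fold in STZ relative to control libraries (exact permutation test, two-sided, p = 0.1, adjusted p = 0.133 over the 4 ratios), and without 1 library the log2 difference ran from -1.37 to -0.83.

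**Figure D3:**
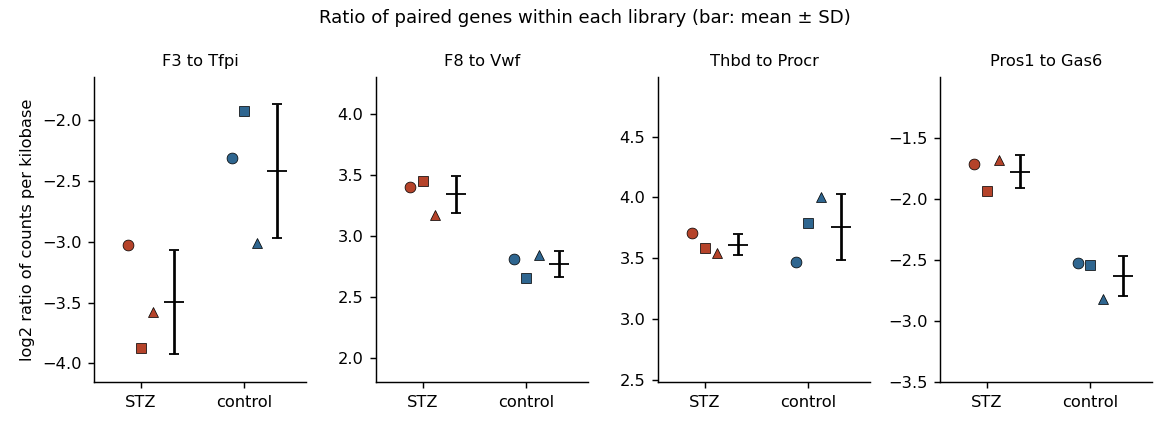
Log2 ratio of counts per kilobase between paired genes within each library, for F3 to Tfpi, F8 to Vwf, Thbd to Procr and Pros1 to Gas6, in the 3 STZ and 3 control libraries (1 symbol per pool, mean ± SD at the side, all vertical axes of the same span). Pros1 to Gas6 and F8 to Vwf separate the groups, F3 to Tfpi only just, and Thbd to Procr overlaps.

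Thbd encodes thrombomodulin, the thrombin receptor that turns thrombin towards protein C (NM_009378, mm10 chromosome 2, 148404471 to 148408188, minus strand). Its level was 929, 906 and 947 CPM in STZ pools, and 778, 894 and 995 CPM in control pools. The STZ pools lay inside the range of the control pools. Thbd had a log2 fold change of 0.06 ± 0.10 (SE, adjusted p = 0.777 by edgeR), and its 95% interval ran from a fall to 0.892 to a 1.22-fold rise. Procr encodes the endothelial protein C receptor, which presents protein C to the thrombomodulin complex (NM_011171, mm10 chromosome 2, 155751217 to 155755478, plus strand). Procr stood at 28.6, 30.5 and 32.8 CPM in STZ pools, and 28.4, 26.02 and 25.0 CPM in control pools. The 2 groups of Procr met without overlapping, at STZ pool 1 and control pool 1. The log2 fold change of Procr was 0.21 ± 0.12 (SE, adjusted p = 0.317 by edgeR), with a 95% interval of -0.05 to 0.46. The ratio of Thbd to Procr per kilobase was 13.1, 11.99 and 11.7 in STZ pools and 11.1, 13.9 and 16.1 in control pools, overlapping groups (exact permutation test, two-sided, p = 0.5, adjusted p = 0.5 over the 4 ratios). The log2 difference of -0.14 moved to -0.29 without control pool 1 and to -0.017 without control pool 3.

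Pros1 encodes protein S, the cofactor of activated protein C and of tissue factor pathway inhibitor, and a ligand of the TAM receptors Tyro3 and Mertk (NM_011173, mm10 chromosome 16, 62854334 to 62929340, plus strand). It stood at 221, 199 and 226 CPM in STZ pools, against 146, 153 and 133 CPM in control pools. Every STZ pool was well above every control pool. Pros1 had a log2 fold change of 0.58 ± 0.09 (SE, adjusted p = 0.00156 by edgeR), the smallest p of the 9 genes. Gas6, built like protein S with a vitamin K-dependent Gla domain, is a ligand of Axl, Tyro3 and Mertk without a known anticoagulant cofactor role (NM_019521, mm10 chromosome 8, 13465374 to 13494535, minus strand). Its level was 576, 602 and 577 CPM in STZ pools, and 667, 709 and 744 CPM in control pools. Every STZ pool was below every control pool, but the log2 fold change of -0.27 ± 0.09 (SE) did not pass (adjusted p = 0.0795 by edgeR), with a 95% interval of -0.47 to -0.08. DESeq2 called Gas6 lower (adjusted p = 0.0382).

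Both proteins need vitamin K-dependent carboxylation and both bind TAM receptors, and their transcripts were compared within libraries. The ratio of Pros1 to Gas6 per kilobase was 0.304, 0.262 and 0.311 in STZ pools, against 0.173, 0.171 and 0.142 in control pools. It was 1.81-fold higher in STZ, without overlap and with the smallest p that the exact permutation test can give (two-sided, p = 0.1, adjusted p = 0.133 over the 4 ratios), and without 1 library the log2 difference ran from 0.76 to 0.93. Gas6 was the more abundant transcript of the pair per kilobase in every library. Gas6 is known to be made by mesangial and smooth muscle cells too, and the mesangial and mural markers given beside F3 summed to less in every STZ pool than in any control pool. The part of those cells in the Gas6 result was not tested. Exons of Gas6 overlap those of Tmem255b on the other strand, and the sources used here do not say whether counting used strand, so their reads may not be told apart. Tmem255b was called lower in STZ (edgeR adjusted p = 0.043), at 7.14 ± 1.05 CPM against 11.4 ± 1.16 CPM in control libraries (SD, n = 3 each).

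Entpd1 encodes CD39, which breaks down ATP and ADP at the endothelial surface (NM_009848, mm10 chromosome 19, 40659794 to 40741602, plus strand). Its level was 162, 171 and 179 CPM in STZ pools, against 112, 112 and 134 CPM in control pools. The groups did not overlap, and control pool 3 was the highest control. Entpd1 had a log2 fold change of 0.52 ± 0.10 (SE, adjusted p = 0.00356 by edgeR). The calls of Pros1 and Entpd1 held in each of the 17 alternatives, with log2 fold changes of 0.50 to 0.63 for Pros1 and 0.48 to 0.61 for Entpd1. Of the 8 endothelial markers 5 were called higher beside these genes, against 5.47% of all tested genes. The changes of the 8 markers differed widely in size. In log2 fold change (± SE, edgeR), Plat had 1.66 ± 0.15, Ehd3 0.80 ± 0.11, Kdr 0.61 ± 0.10, Cdh5 0.47 ± 0.10 and Emcn 0.42 ± 0.11, all called higher. Pecam1 at 0.30 ± 0.09, Flt1 at 0.25 ± 0.10 and Tek at 0.02 ± 0.09 did not pass. The 2 platelet markers tested summed to 21.9 to 23.3 CPM in STZ and 15.2 to 17.8 CPM in control libraries. Of these, Itga2b was called higher, at 21.1 ± 1.48 CPM in STZ and 14.3 ± 2.05 CPM in control libraries, and Gp1ba stood at 1.34 ± 0.792 CPM in STZ and 1.88 ± 0.727 CPM in control libraries (SD, n = 3 each). The other 6 platelet markers, Pf4 and Ppbp among them, were not found by symbol among the 12911 genes, so they could not be analysed here. The part of endothelial content or of platelets in the rise of Pros1, F8 and Entpd1 was not tested.

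**Figure D4:**
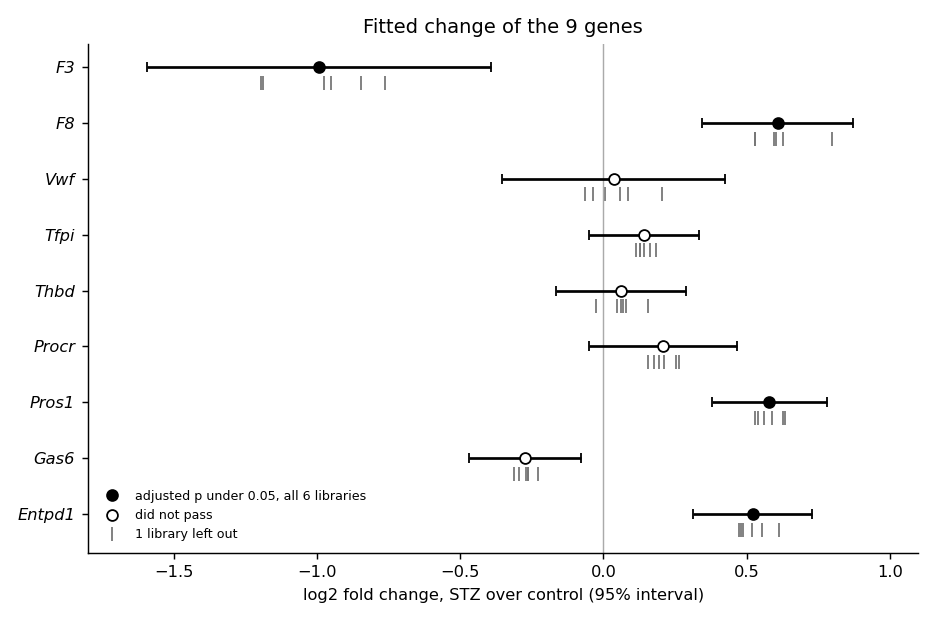
Fitted log2 fold change of STZ over control for the 9 genes with its 95% interval (horizontal axis, edgeR), filled where the adjusted p was under 0.05, with a tick for each fit that left out 1 library. Pros1, F8 and Entpd1 lie above 0 in every fit and F3 and Gas6 below 0, while the ticks of Vwf and Thbd fall on either side of 0.

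The genes whose levels over the 6 libraries lay nearest to each called gene were found by the root mean square difference of log2 CPM after centring. They were Man2a1 (0.0354) and Tubb4b (0.0394) for Pros1, Frmd4a (0.0386) and Mkl2 (0.0417) for Entpd1, and Mettl20 (0.0419) and Vav3 (0.0488) for F8. F3 had no neighbour as close, with Hoxc8 at 0.141 and Chdh at 0.150. With 6 libraries in 2 groups this measure is led by the difference between the groups, so it describes likeness of level and nothing more.

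Around these 9 genes, 54 further genes of the pathway were listed in 6 groups, and 28 of them were tested. Of the 28, 3 were called higher (10.7%, against 5.47% of all tested genes), none lower (against 4.32%), and 25 did not pass, with a median log2 fold change of 0.13, against -0.01 over all tested genes. At an unadjusted p under 0.05, edgeR had 9 of the 28 higher and 5 lower, against 24.2% of all tested genes in either direction. DESeq2 called 4 higher, against 5.51% of all tested genes, and 4 lower (Axl, Cd63, Nt5e and P2ry2), against 4.54%. By limma-voom 3 were higher, against 5.18% of all tested genes, and 1 lower (Axl), against 4.07%. With edgeR 1 gene was called lower without STZ pool 2 (Axl), without control pool 3 (Cd63) and with a replicate block (P2ry2), and 1 gene, Mertk, was called higher without STZ pool 1. The 14 clotting enzymes, cofactors and fibrinogen chains, mostly products of the liver, were not found by symbol among the 12911 genes, so they could not be analysed here.

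Among receptors for thrombin and for protein S and Gas6, 2 of 5 tested genes were called higher, against 5.47% of all tested genes. F2rl3, the thrombin receptor PAR4, stood at 18.4 ± 2.90 CPM in STZ and 10.05 ± 2.24 CPM in control libraries (SD, n = 3 each), a log2 fold change of 0.84 ± 0.19 (SE, adjusted p = 0.0143 by edgeR). That call was lost without STZ pool 1 (adjusted p = 0.0721) or control pool 2 (0.0524). Mertk, a TAM receptor that Pros1 and Gas6 bind, stood at 247 ± 26.04 CPM in STZ and 170.3 ± 17.02 CPM in control libraries (SD, n = 3 each), a log2 fold change of 0.53 ± 0.11 (SE, adjusted p = 0.00602 by edgeR). The Mertk call held without any 1 library. F2r, the thrombin receptor PAR1, had a log2 fold change of 0.33 ± 0.10 that did not pass (adjusted p = 0.0582 by edgeR), though it was called higher by DESeq2 (adjusted p = 0.0211) and by edgeR without control pool 2 (adjusted p = 0.0498). Of the other TAM receptors, Axl had -0.72 ± 0.28 (adjusted p = 0.206 by edgeR) and Tyro3 -0.23 ± 0.18 (adjusted p = 0.483). Without STZ pool 2 Axl had -0.47 and was called lower (edgeR adjusted p = 0.0271), and Tyro3 had -0.084. With all 6 libraries Axl was called lower by DESeq2 (adjusted p = 0.00299) and by limma-voom (0.0494). Tyro3 also moved to -0.35 without STZ pool 3, to -0.34 without control pool 3, to -0.12 without control pool 1 and to -0.12 after thinning. By edgeR, the ligand Pros1 and the receptor Mertk were called higher, while the ligand Gas6 and the receptors Axl and Tyro3 did not pass. Whether the genes differ from each other in their change was not tested, other than by the Pros1 to Gas6 ratio.

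For storage, release and cleavage of von Willebrand factor, 1 of 8 genes was called higher, against 5.47% of all tested genes, and 1 gene is too few to set the list apart. It was Vamp3, a vesicle fusion protein, at 122 ± 6.10 CPM in STZ and 95.8 ± 3.86 CPM in control libraries (SD, n = 3 each; log2 fold change 0.35 ± 0.09 SE, adjusted p = 0.0196 by edgeR), and its call was lost without STZ pool 1 (adjusted p = 0.121), STZ pool 3 (0.0552), control pool 1 (0.0558) or control pool 2 (0.0525), and with all libraries thinned to the smallest (0.0559). Selp, the P-selectin gene whose product is stored with von Willebrand factor, stood at 3.03 ± 0.370 CPM in STZ and 2.35 ± 0.118 CPM in control libraries (SD, n = 3 each). Adamts13, the protease that cleaves von Willebrand factor, had a log2 fold change of 0.27 ± 0.12 (SE, adjusted p = 0.176 by edgeR), and 0.17 without STZ pool 2. By edgeR, 4 of these 8 genes had an unadjusted p under 0.05, against 24.2% of all tested genes in either direction. Vamp3, Snap23 and Adamts13 were higher, and Cd63 was lower. In 5 of the 8 every STZ library lay above every control library, against 15.4% of all tested genes. None of the 5 genes for vitamin K-dependent carboxylation and for export of factors V and VIII passed, against 9.78% of all tested genes. With all 6 libraries their edgeR log2 fold changes were 0.02 to 0.23. The lowest, of Vkorc1l1, turned negative without STZ pool 2 (-0.046), without control pool 1 (-0.066) and after thinning (-0.027). The 5 genes include Ggcx, the carboxylase that protein S and Gas6 need, and Lman1, the cargo receptor of factor VIII.

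With all 6 libraries and no block, edgeR called none of the 3 tested protease inhibitor genes (median log2 fold change 0.05). It also called none of the 7 tested genes of purine and prostacyclin control of platelets (median -0.34). Of all tested genes 9.78% were called in either direction. At an unadjusted p under 0.05 edgeR had 5 of these 7, against 24.2% of all tested genes in either direction. Adora2a and Ptgs1 were higher, and P2ry1, P2ry2 and Ptgs2 were lower. Nt5e, the ectonucleotidase CD73 that acts after CD39, stood at 46.8 ± 16.9 CPM in STZ and 70.8 ± 10.1 CPM in control libraries (SD, n = 3 each), with a log2 fold change of -0.60 ± 0.30 (adjusted p = 0.307 by edgeR). Leaving out STZ pool 2 gave -0.34, and leaving out STZ pool 3 gave -0.86. The STZ pools of Nt5e overlapped the control pools, and whether its change differed from that of Entpd1 was not tested. The ADP and ATP receptor genes P2ry1 and P2ry2 had log2 fold changes of -0.34 ± 0.15 and -0.49 ± 0.17 (adjusted p = 0.172 and 0.105 by edgeR). P2ry2 was called lower with a replicate block (edgeR adjusted p = 0.0188), and without control pool 3 its log2 fold change was -0.29. P2ry1 had -0.22 without control pool 3. Ptgis, the prostacyclin synthase, stood at 6.38 ± 0.846 CPM in STZ and 5.31 ± 1.64 CPM in control libraries (SD, n = 3 each), and it did not pass.

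**Figure D5:**
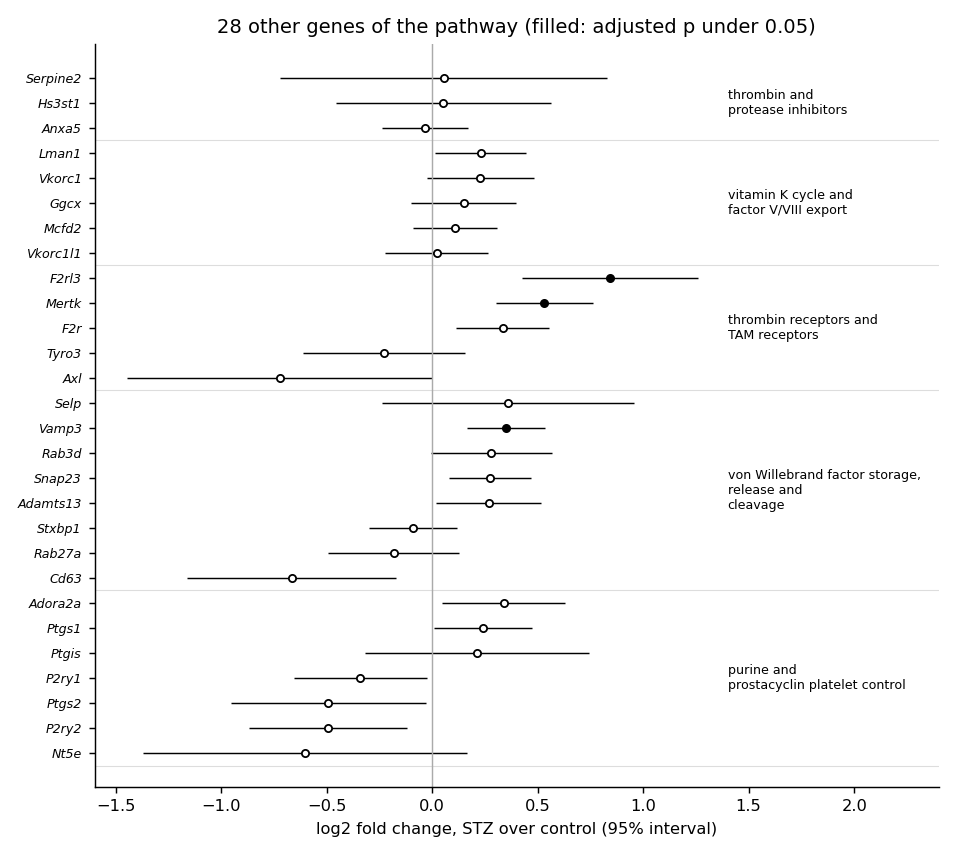
Fitted log2 fold change of STZ over control with its 95% interval (horizontal axis, edgeR) for the 28 tested genes of the pathway lists, grouped by list and filled where the adjusted p was under 0.05. Only F2rl3, Mertk and Vamp3 are filled, all 3 above 0.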

How the data were processed

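RNA-seq of 6 libraries, each RNA of 4 pooled mice, was analysed from 1 deposited table per library. Per the file headers and values, the deposited files give each gene a symbol, a RefSeq transcript, its position and length, and an expected count. Build mm10 and the tool limma come from the submitters' processing notes. For the aligner, counter, strand setting and gene filter, the entry is: not given in the sources used here. All values were multiples of 0.5, those of the 9 genes were whole, and 34 blank cells were read as 0. Listed starts were raised by 1, since 2321 of 5850 genes with a matching end then had a GENCODE transcript start, against 175 as listed.

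After rounding to whole counts and the filterByExpr filter, genes were tested by edgeR (version 4.0.16, under R 4.3.3) with trimmed-mean normalization and a robust, two-sided quasi-likelihood F test. The SE is the size of the log2 fold change divided by the square root of F. Total counts of 4387339 to 12662371.5 per library, together with the spread between pools, set the precision. Library pairs differed beyond sampling noise (chi-square per gene of at least 4.18). Ratios used deposited counts plus 0.5, divided by length. The 9 genes and the lists were chosen with earlier results of these data known. Named genes were the 9, up to 3 called genes per list with the smallest p, and the 2 nearest in level to each called gene. Other genes in the text (list members that did not pass, markers, Xist and Tmem255b) were chosen after their values were seen. The fit was tested on simulated data. DESeq2 1.42.0 and limma-voom (limma 3.58.1) were alternatives, with other normalizations, filters, rounding, thinning, a block and libraries left out.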

Additional observations from a re-analysis of the deposited data

How the results depend on the processing

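The calls of Pros1, F8 and Entpd1, and the count of 3 genes called higher, held in each of the 17 alternatives, and Tfpi and Procr kept their direction and stayed uncalled in all of them. F3 alone, the 1 gene called lower, lost its call, with log2 fold changes of -0.99 by limma-voom, -0.99 in a fit that was not robust, -0.95 with a replicate block and -0.91 thinned to the smallest library (1 random draw), and of -1.19 to -0.76 without 1 library. The count of the 9 genes called lower was 2 by DESeq2 and at a threshold of 0.10, where Gas6 (-0.27 in each) joined F3, and it was 0 by limma-voom, in the fit that was not robust, with a replicate block and after thinning. Without 1 library that count was 0 to 1. Among all 12786 tested genes, 552 were called lower in the main fit, 581 by DESeq2 and 866 at a threshold of 0.10. The number was 521 by limma-voom, 518 in the fit that was not robust and 430 with a replicate block. After thinning it was 348 of 12467 tested genes. Gas6 ran from -0.31 to -0.23 without 1 library. Vwf and Thbd changed sign without 1 library, never called: Vwf ran from -0.065 to 0.20 (-0.035 without STZ pool 3, -0.065 without control pool 3), and Thbd ran from -0.026 (without control pool 1) to 0.15. The number of genes called among all tested was 662 without STZ pool 1 and 720 without control pool 1, and 662 to 1291 over the 6 such fits, against 1251. The replicate block changed no call of the 9 genes other than that of F3. Deviations of same-numbered libraries from their group means correlated at 0.12, -0.13 and -0.16, and those of other pairs at -0.24 to 0.29. With 3 pools a group this cannot show whether same-numbered pools belong together, and the labels do not say. The block left 1001 genes called among all tested. The 4 ratios kept their direction in all 9 alternatives, although Thbd to Procr ran from -0.29 to -0.017 without 1 library, and 3 libraries a group cannot bring their exact test under 0.1. With 22 to 71 counts per library, F3 is the gene of the 9 with the fewest counts, which limits its precision.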
